A study of Mus musculus with 8 samples.

Results

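Costimulatory and inhibitory receptors decide how far a T cell that has met its antigen goes on to divide and differentiate. The 10 genes described here were chosen by symbol from a list of such receptors: Cd28, Cd27, Icos, Btla, Vsir, Cd96, Pdcd1, Ctla4, Lag3 and Cd160. All 10 had a row in the count table, which holds 41730 gene rows. They were read in naive mouse CD8+ T cells kept in culture for 24 h with RGX-104 at 2 µM (4 libraries) or with DMSO as the control (4 libraries). RGX-104 is a small molecule that activates LXR, the liver X receptors. These are nuclear receptors that sense oxidised cholesterol derivatives and drive genes of lipid export and synthesis.

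The cells of both groups were isolated with a kit for naive mouse CD8 T cells, and no stimulus besides the agonist or DMSO is named in the labels. For the mice, strain, age and sex are not given in these sources. RGX-104 libraries carry the numbers 5 to 8 and DMSO libraries 1 to 4. The labels do not state whether each library had its own animal or culture, so the p-values reflect library-to-library spread, which may be technical. The question for the receptors is whether the agonist alone changes their transcripts.

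T cell activation needs a signal from the antigen receptor and a second one from costimulatory receptors. CD28, the founding member of its family, binds CD80 and CD86 on antigen-presenting cells, and CTLA-4 competes with it for the same ligands. ICOS, PD-1 (encoded by Pdcd1) and BTLA are related in structure to CD28. CD27 belongs to the tumour necrosis factor receptor family, and resting naive T cells already carry it. VISTA (encoded by Vsir) is known as an inhibitory receptor that keeps naive T cells quiescent. ICOS, CTLA-4, PD-1 and LAG-3 are known mainly as receptors that appear after activation.

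The libraries were primed on poly(A) tails and read near the 3′ end of each transcript, so a receptor is counted where its annotated transcript ends. The ends of 5 receptor transcripts are shown for this reason, Cd28 because it had no count at all, Cd27 and Vsir because they had the most, and Ctla4 and Pdcd1 because their counts were low. Each run gives 30 bases of the last exon of the longest coding transcript of the gene (GENCODE M21, build GRCm38), 5′ to 3′ on the strand of the gene. The capitals mark the poly(A) signal hexamer.
Cd28: tagcctgcAATAAAtatttattcattgact
Cd27: actataAATAAAttcatttgtctacttcta
Vsir: acaaATTAAAagtcagctcttaactacttg
Ctla4: aattaAATAAAagtttcttgtgattgtttt
Pdcd1: gttataATTAAAtggtaccaaaagctttaa

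The runs lie at chr1:60773330-60773359 on the plus strand (Cd28), chr6:125232622-125232651 on the minus strand (Cd27), chr10:60372637-60372666 on the plus strand (Vsir), chr1:60915803-60915832 on the plus strand (Ctla4) and chr1:94038305-94038334 on the minus strand (Pdcd1). The hexamers AATAAA and ATTAAA were searched in the last 50 bases of the transcript, on the transcribed strand only. In Ctla4 the printed AATAAA overlaps an ATTAAA. All 10 receptor genes held a hexamer there, as did 72.2% of the longest coding transcripts of 21877 genes. In this annotation Cd28 and Cd27 both held AATAAA, but the annotation used for counting is not given in these sources. A match is a description of these letters and does not show that the site was used in these cells.

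On GRCm38.p6, Cd28 (60746388 to 60773359), Ctla4 (60909025 to 60915832) and Icos (60960773 to 61000322) lie side by side on chromosome 1, with gaps of 135.666 and 44.941 kb. Pdcd1 lies far from them on the same chromosome (94038305 to 94052553). Lag3 (124904359 to 124912434) and Cd27 (125232620 to 125237136) are neighbours at a distance of 320.186 kb on chromosome 6. Btla (45223705 to 45252895) and Cd96 (46035652 to 46120248) lie on chromosome 16, Vsir (60346851 to 60430294) on chromosome 10 and Cd160 (96798763 to 96829351) on chromosome 3. All are annotated as protein-coding. Cd27 overlaps the long noncoding RNA E130112N10Rik, which had 258 counts in all, and Mir8113, which had 65. Vsir overlaps Cdh23 and Gm17455, both without a count, and Cd96 overlaps a pseudogene.

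None of the 10 receptor genes was called as changed by RGX-104. Of these genes 6 had enough counts to be tested (Cd27, Vsir, Cd96, Btla, Ctla4 and Icos), 3 were too low (Pdcd1, Lag3 and Cd160) and Cd28 had no count in any library. The number called was 0 of 6 with edgeR's quasi-likelihood test at an adjusted p under 0.05, and no member had an unadjusted p under 0.05. Among all 10037 genes tested, 0.11% were called (0.0996% higher and 0.00996% lower in RGX-104), and 3.81% had an unadjusted p under 0.05. DESeq2 and limma-voom also called 0 of the 6, against 0.329% and 0.139% of all genes tested. In each of the 6 genes the RGX-104 and DMSO libraries overlapped, while 3.56% of all genes tested had no overlap. The log2 fold changes, RGX-104 over DMSO, were above 0 for 3 members and below 0 for 3, with a median of -0.09 beside 0.01 over all genes tested. With so few genes called, a count of 0 among 6 differs little from the background.

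**Figure D1:**
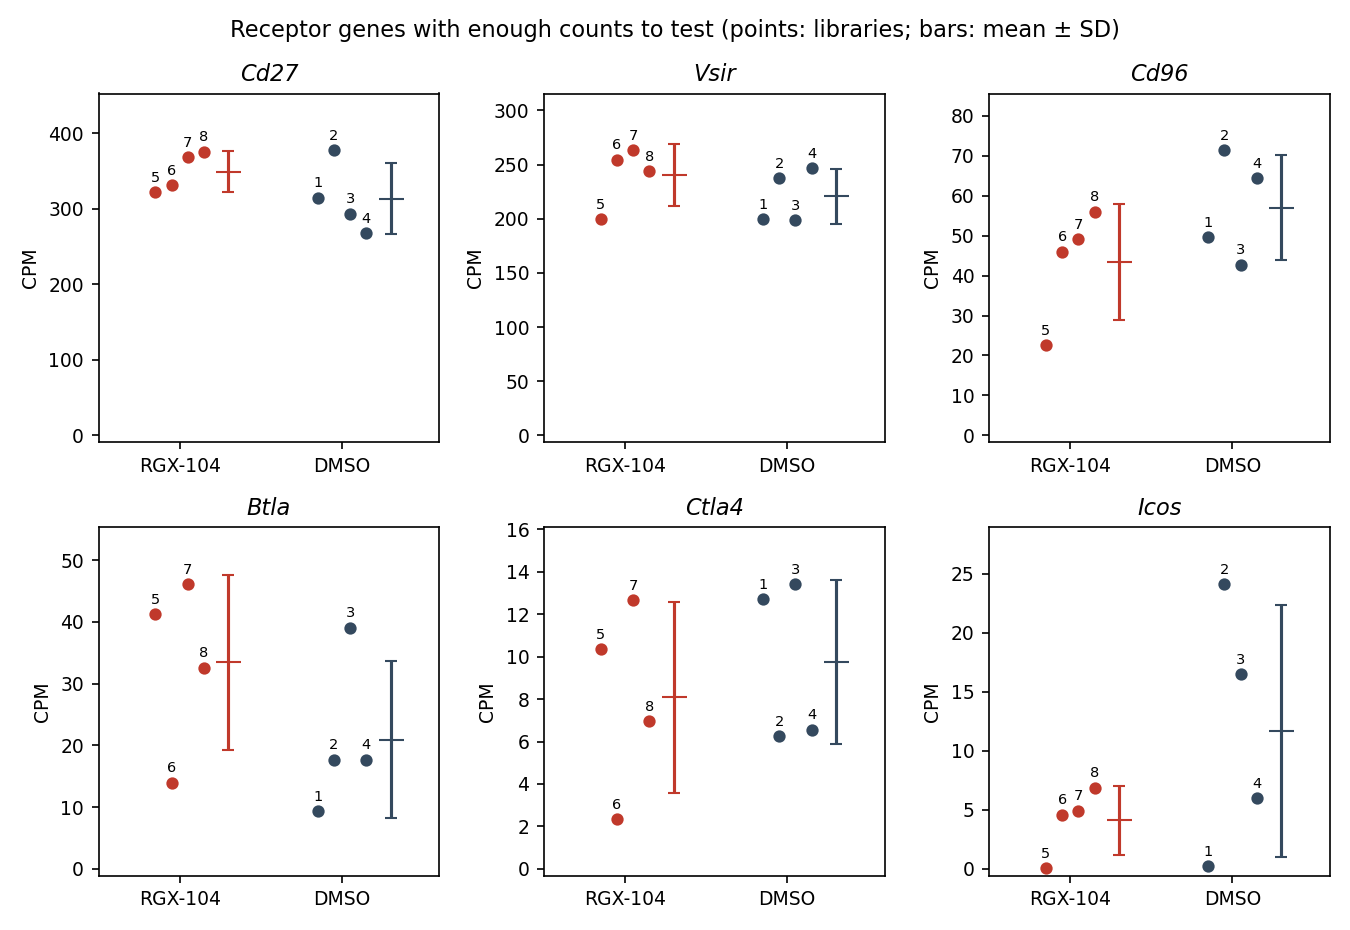
CPM (counts scaled to a library total of 1000000) of the 6 tested receptor genes, with RGX-104 on the left and DMSO on the right of each panel. Points are single libraries with their number, and bars give the mean ± SD of 4 libraries. The groups overlap in every panel.

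Total counts were 16196217 to 28287445 in the RGX-104 libraries and 16308726 to 24353797 in the DMSO libraries, with 10442 to 10990 and 9772 to 10908 genes detected. The summed level of 13 genes of naive CD8 T cell identity, among them Cd8a and Cd3e, was 6307 to 7210.2 CPM in RGX-104 and 6517 to 6843 CPM in DMSO. None of the 13 was called by edgeR, and 2 had an unadjusted edgeR p under 0.05, both lower in RGX-104. These were Lef1, described with the transcription factors, and Il7r, the interleukin-7 receptor, at 309.8 ± 28.7 CPM in RGX-104 and 387 ± 41.8 CPM in DMSO (log2 fold change -0.34, edgeR adjusted p = 1.00). Genes of memory and effector CD8 T cells summed to 751 to 937 CPM in RGX-104 and 708 to 931 CPM in DMSO (9 of 12 with a count). Markers of B cells summed to 121 to 188 CPM in RGX-104 and 44.5 to 222 CPM in DMSO (8 of 10 with a count), markers of macrophages and monocytes to 8.06 to 24.2 and 6.24 to 30.9 CPM (6 of 10), and markers of natural killer and innate-like T cells to 4.42 to 10.1 and 1.75 to 20.8 CPM (6 of 11). Dendritic cell markers summed to at most 6.24 CPM in RGX-104 and 7.11 CPM in DMSO (4 of 8 with a count). Ncr1, C1qa and Xcr1, defining markers of natural killer cells, macrophages and dendritic cells, had no count, while Fcer1g, Tyrobp, Cd68 and Lyz2 of the same lists had 730, 487, 1134 and 735 counts in all. A 0 in this table does not show that a cell type is absent, since genes that T cells use were also at 0. In these bulk samples, fewer cells of a type and less RNA per cell cannot be told apart.

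The receptors fell into 3 ranges of abundance. Levels are 3′ end CPM, in which a transcript is counted from its end and the count is not divided by length. Cd27 and Vsir averaged 331 and 230.3 CPM over the 8 libraries, Cd96 50.2 CPM and Btla 27.2 CPM, and Ctla4, Icos and Pdcd1 8.90, 7.92 and 2.77 CPM. Cd27 was above Vsir and Vsir above Cd96 in 8 of 8 libraries. Cd96 was above Btla, and Btla above Ctla4, in 7 of 8. Ctla4 was above Icos in 5 of 8, so the order of these neighbours was not settled by their spread.

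Cd27 was the most abundant of the 10 receptors. It binds CD70 and supports the survival and expansion of activated T cells. Cd27 had 322, 332, 368 and 376 CPM in RGX-104 replicates 5 to 8, against 315, 377, 294 and 268 CPM in DMSO replicates 1 to 4. The highest library was DMSO replicate 2 and the lowest DMSO replicate 4, so the RGX-104 values lay inside the range of the control. The means were 349 ± 26.7 CPM in RGX-104 and 313 ± 46.8 CPM in DMSO (SD, n = 4 each). The log2 fold change was 0.14 ± 0.14 (SE, edgeR adjusted p = 1.00). Its approximate 95% interval ran from 0.900- to 1.35-fold, so a change of 1.5-fold in either direction lay outside it.

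Icos, which binds ICOS ligand and helps activated and follicular helper T cells, was the least even of the tested receptors. Icos had 0.0354, 4.59, 4.94 and 6.89 CPM in RGX-104 replicates 5 to 8, against 0.206, 24.2, 16.5 and 6.01 CPM in DMSO replicates 1 to 4. The counts behind these levels were 1, 98, 80 and 116 in RGX-104 and 4, 449, 402 and 98 in DMSO. DMSO replicates 2 and 3 were the high libraries, and RGX-104 replicate 5 and DMSO replicate 1 were close to 0. The means were 4.11 ± 2.90 CPM in RGX-104 and 11.7 ± 10.7 CPM in DMSO. The log2 fold change of -1.52 ± 1.49 did not pass (edgeR adjusted p = 1.00), with an interval from 0.0402- to 3.03-fold.

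The 2 highest Icos values stood in the 2 libraries that held counts of Foxp3 and Cd40lg, markers named after their values were seen. Foxp3, the transcription factor of regulatory T cells, had 2.42 CPM in DMSO replicate 2 and 6.32 CPM in DMSO replicate 3 and no count in the other 6 libraries. Cd40lg, a ligand made mainly by CD4 T cells, had 4.63 and 8.17 CPM in the same libraries and no count elsewhere. By the molecule estimate given below, 1 apparent molecule came to 5.48 CPM in DMSO replicate 2 and 4.72 CPM in DMSO replicate 3. On this rough scale both markers rested on very few molecules. The whole list of 6 markers of CD4 and regulatory T cells summed to 19.9 to 57.8 CPM in RGX-104 and 19.8 to 58.6 CPM in DMSO, with all 6 genes counted in at least 1 library, and it did not separate these libraries: it was 19.8 CPM in DMSO replicate 2. The summed markers of natural killer and innate-like T cells were also highest there, at 20.8 and 14.7 CPM, but only 1 and 2 of the 11 genes were counted. In DMSO replicate 2 the whole sum was Fcer1g, which myeloid cells also express. Cd4 itself was at 1.59 to 3.68 CPM in RGX-104 and at 0.646 and 0.0821 CPM in DMSO replicates 2 and 3. Without DMSO replicates 2 and 3, a setting chosen after the values were seen, the log2 fold change of Icos was 0.37 (edgeR adjusted p = 1.00). These libraries held its 2 highest values, so leaving them out lowers the control mean by construction. The part of other T cells in the Icos values was not tested.

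**Figure D2:**
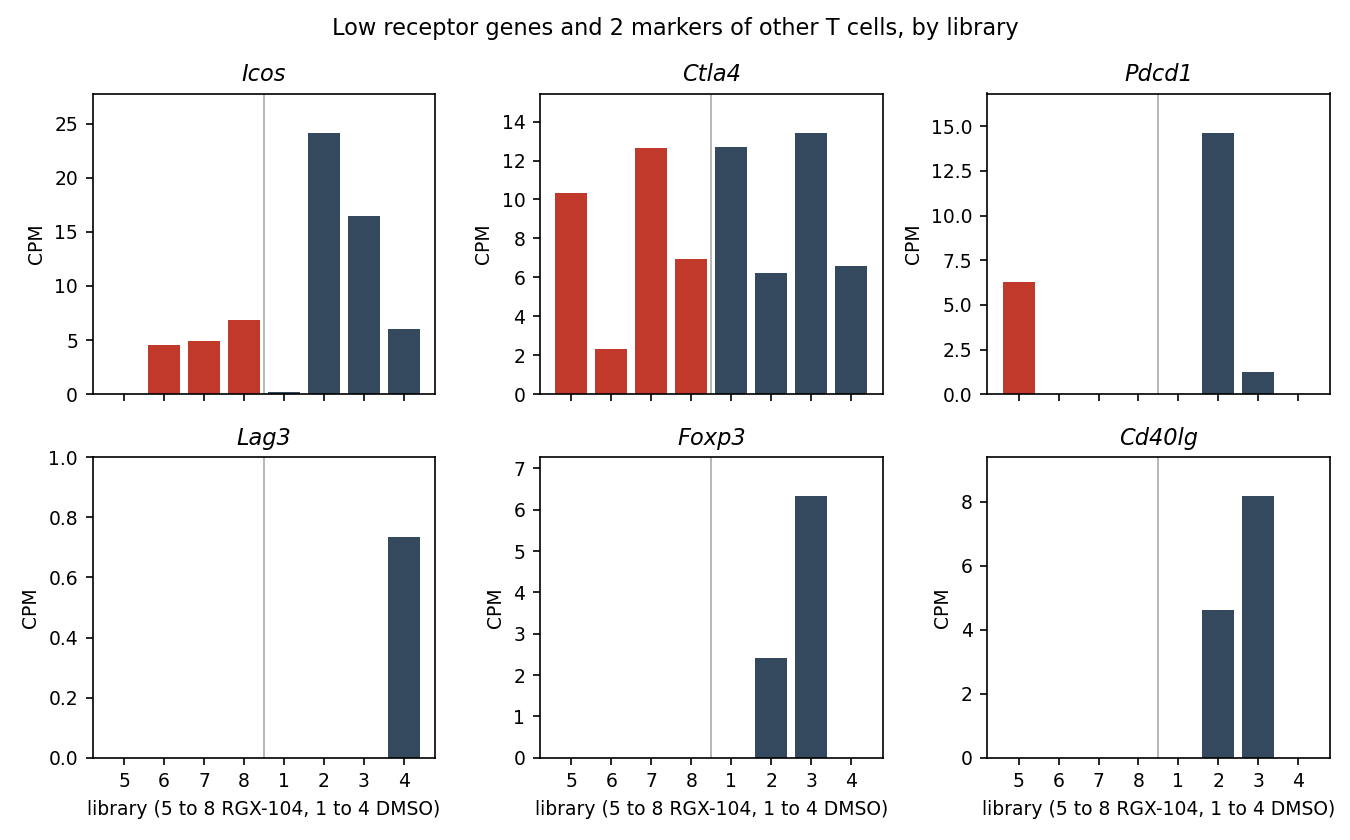
CPM of Icos, Ctla4, Pdcd1 and Lag3 and of the markers Foxp3 and Cd40lg in each library, RGX-104 replicates 5 to 8 on the left and DMSO replicates 1 to 4 on the right, each panel with its own scale from 0. Icos, Foxp3 and Cd40lg are highest in DMSO replicates 2 and 3. Cd4, not shown, was lowest there (0.646 and 0.0821 CPM), and the whole list of CD4 and regulatory T cell markers did not separate these libraries. Icos and Ctla4 have counts in all 8 libraries, Foxp3 and Cd40lg only in DMSO replicates 2 and 3.

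Cd28 was listed at 0 in all 8 libraries. This does not show that the cells lack it, since other genes that T cells are known to use were also at or near 0. Cd2, an adhesion and costimulatory receptor of T cells, had no count, H2-K1, an MHC class I heavy chain, had 4 counts in all 8 libraries together and H2-D1, another one, had 1; these genes were chosen after their values were seen. B2m, the partner chain of MHC class I, was counted in every library. Ctla4 and Icos, the neighbours of Cd28 on the chromosome, were also counted in every library. A count of 0 over a group allows up to 0.0363 CPM in RGX-104 and 0.0381 CPM in DMSO (3 counts of the group's total), for counting error of independent reads only. The molecule estimate given below has 48.9 to 115 reads per apparent molecule. By that rough estimate reads were not independent and these limits are too tight, which was not tested otherwise.

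Vsir was the most abundant inhibitory receptor among the 10 genes. Vsir had 199, 254, 263 and 244 CPM in RGX-104 replicates 5 to 8, against 199.8, 237, 199 and 247 CPM in DMSO replicates 1 to 4. RGX-104 replicate 5 was as low as DMSO replicates 1 and 3, and the other RGX-104 libraries lay near the 2 higher DMSO libraries. The means were 240.1 ± 28.4 CPM in RGX-104 and 221 ± 25.01 CPM in DMSO. The log2 fold change was 0.11 ± 0.16 (edgeR adjusted p = 1.00), with an interval from 0.856- to 1.35-fold, and it was -0.016 in a fit with genes detected as a covariate. Myeloid cells are also known to make Vsir, and their part in its level was not tested; the macrophage and monocyte marker sums are given above.

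Cd96 binds CD155, the product of Pvr, and competes for it with the activating receptor CD226. Cd96 had 22.6, 45.9, 49.1 and 56.0 CPM in RGX-104 replicates 5 to 8, against 49.6, 71.3, 42.7 and 64.4 CPM in DMSO replicates 1 to 4. RGX-104 replicate 5 stood lowest, and the other 3 RGX-104 libraries lay within the DMSO range. The means were 43.4 ± 14.5 CPM in RGX-104 and 57.0 ± 13.2 CPM in DMSO. Its log2 fold change was -0.41 ± 0.34 (edgeR adjusted p = 1.00), with an interval from 0.456- to 1.24-fold. Without RGX-104 replicate 5 it was -0.20.

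Cd226 was also lowest in RGX-104 replicate 5, at 58.3 CPM, against 88.2 to 105 CPM in the other RGX-104 libraries and 81.5 to 133 CPM in DMSO. Tigit, a further receptor for CD155 that inhibits T cells, had 0, 4.03, 0.864 and 3.39 CPM in RGX-104 replicates 5 to 8, against 0, 0.0538, 0 and 0 CPM in DMSO. It had counts in 3 RGX-104 libraries and 1 DMSO library and was too low to test. Pvr averaged 23.3 ± 12.5 CPM in RGX-104 and 17.1 ± 15.5 CPM in DMSO and did not pass (log2 fold change 0.44, edgeR adjusted p = 1.00).

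Btla binds HVEM, the product of Tnfrsf14, and recruits phosphatases that dampen signalling. Btla had 41.3, 14.0, 46.1 and 32.5 CPM in RGX-104 replicates 5 to 8, against 9.31, 17.7, 39.0 and 17.7 CPM in DMSO replicates 1 to 4. The 3 higher RGX-104 libraries lay near DMSO replicate 3 and above the other DMSO libraries, and RGX-104 replicate 6 lay among those. The means were 33.5 ± 14.2 CPM in RGX-104 and 20.9 ± 12.7 CPM in DMSO. The log2 fold change of 0.67 ± 0.53 was the highest of the tested receptors and did not pass (edgeR adjusted p = 1.00), with an interval from 0.734- to 3.43-fold. It was 1.14 without DMSO replicate 3.

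B cells also make Btla, and the summed B cell markers stood highest in DMSO replicate 3 (222 CPM) and RGX-104 replicate 7 (188 CPM), which held the highest Btla values of their groups. The sum was 121 to 135 CPM in the other RGX-104 libraries and 44.5 to 134 CPM in the other DMSO libraries. RGX-104 replicate 5, with 41.3 CPM of Btla, had a B cell sum of 127 CPM, and DMSO replicate 1, with 9.31 CPM of Btla, had one of 134 CPM. The part of B cells in the Btla values was not tested. Tnfrsf14 had 0 to 9.68 CPM in RGX-104 and 0 to 26.5 CPM in DMSO.

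Ctla4, which takes CD80 and CD86 away from CD28, was low but counted in all 8 libraries. Ctla4 had 10.4, 2.34, 12.7 and 6.95 CPM in RGX-104 replicates 5 to 8, against 12.7, 6.24, 13.4 and 6.56 CPM in DMSO replicates 1 to 4. The 2 groups covered nearly the same range, apart from the lower RGX-104 replicate 6. The means were 8.08 ± 4.48 CPM in RGX-104 and 9.73 ± 3.86 CPM in DMSO. Its log2 fold change was -0.28 ± 1.09 (edgeR adjusted p = 1.00), with an interval from 0.168- to 4.02-fold, and it was 0.016 without RGX-104 replicate 6. Regulatory T cells carry much Ctla4, and Foxp3, named after its values were seen, was counted in DMSO replicates 2 and 3 and at 0 in the other 6 libraries. Of these, DMSO replicate 3 held the highest Ctla4 value of the DMSO libraries and DMSO replicate 2 the lowest. The whole list of 6 markers of CD4 and regulatory T cells summed to 40.5, 19.8, 58.6 and 55.6 CPM in DMSO replicates 1 to 4. The part of regulatory T cells in the Ctla4 values was not tested.

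Pdcd1, the receptor PD-1 that antigen stimulation induces, had 6.26 CPM in RGX-104 replicate 5 and no count in the other RGX-104 libraries, against 0, 14.6, 1.23 and 0 CPM in DMSO replicates 1 to 4. The counts were 177 in that RGX-104 library and 272 and 30 in DMSO replicates 2 and 3, and the other 5 libraries had none. Lag3, a receptor for MHC class II, had 12 counts in DMSO replicate 4 (0.736 CPM) and none elsewhere. Cd160, a GPI-anchored receptor for HVEM and for MHC class I molecules that has been given both stimulating and inhibiting roles, had 4 counts in DMSO replicate 1 (0.206 CPM) and none elsewhere. Fitted without a filter on low counts, Pdcd1, Lag3 and Cd160 did not pass either (edgeR adjusted p = 0.993, 0.430 and 0.455). For Lag3 and Cd160 the RGX-104 total of 0 allows up to 0.0363 CPM, for counting error of independent reads only. As for Cd28, this limit is too tight by the molecule estimate.

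The number of molecules behind the reads was estimated from the share of zeros among genes of 2 to 20 CPM, a method chosen with the data known. By this estimate 1 apparent molecule corresponded to 2.90 to 5.48 CPM. It is an average over genes and gives values below 1 for some genes that were counted, so it serves as a rough scale only. On that scale Cd27 rested on 62.2 to 129 apparent molecules per library and Vsir on 40.1 to 84.0, but Cd96 on 5.66 to 20.4, Btla on 1.87 to 14.5, Ctla4 on 0.684 to 3.97 and Icos on 0.00885 to 4.40. The coefficient of variation within a group ran in the opposite order in RGX-104 and nearly so in DMSO. It was 7.65% in RGX-104 and 14.9% in DMSO for Cd27, 11.8% and 11.3% for Vsir, 33.4% and 23.1% for Cd96, 42.3% and 60.7% for Btla, 55.5% and 39.7% for Ctla4 and 70.5% and 91.2% for Icos. Moderate differences of the low receptors were not detectable in these libraries, as the width of their intervals shows. The same estimate gave 48.9 to 115 reads per apparent molecule. It treats every zero as sampling, so real differences between libraries also lower the number of apparent molecules. Whether reads or molecules limited the low receptors was not tested.

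**Figure D3:**
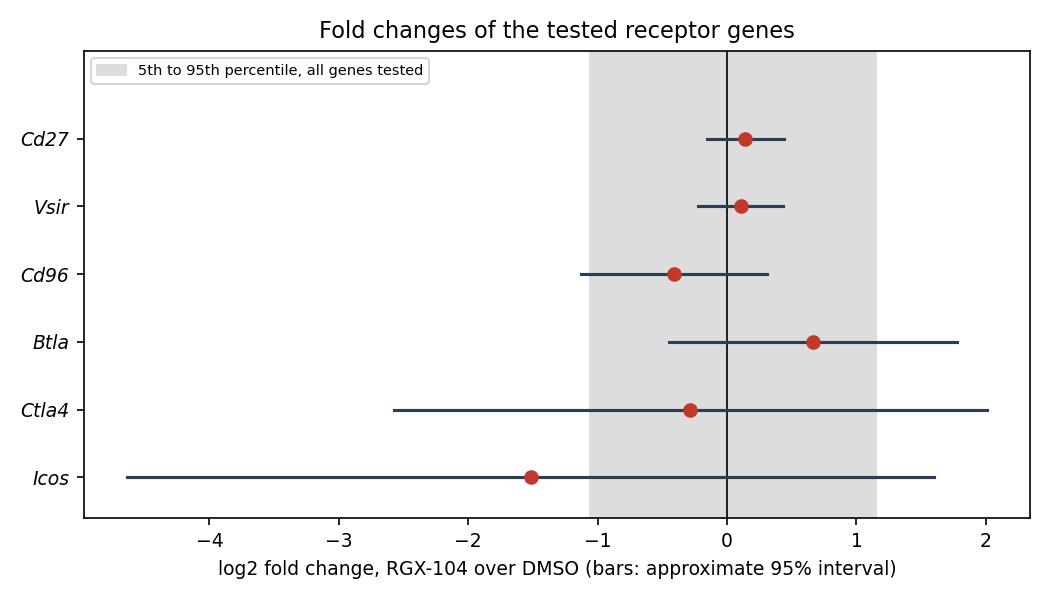
Log2 fold change, RGX-104 over DMSO, of each tested receptor gene (points) with its approximate 95% interval (lines), ordered from the most abundant at the top to the least. The grey band spans the 5th to 95th percentile of all 10037 genes tested, and the intervals widen from Cd27 (0.14 ± 0.14) to Icos (-1.52 ± 1.49).

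For the receptors with a mean of at least 50 CPM, the genes with the most similar pattern over the 8 libraries were looked up. The search covered 3543 other tested genes with a mean of at least 50 CPM, without matching for abundance. Vsir was most like Uck2, a uridine-cytidine kinase (Pearson r = 0.993, Spearman rho = 0.952), and Senp5 (r = 0.892). Cd27 was most like Rassf5 (r = 0.941) and 9930021J03Rik (r = 0.919), and Cd96 like Pdk1 (r = 0.955) and TrnM (r = 0.929). These are the highest of many values over 8 libraries that share their depth, and are given as a description.

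Of 20 further costimulatory receptors, 14 were tested, 2 were too low and 4 had no count in any library. Among the 14, edgeR, DESeq2 and limma-voom called 0. The median log2 fold change was -0.11, beside 0.01 over all genes tested. Tnfrsf18 (GITR) was the most abundant, at 357 ± 67.8 CPM in RGX-104 and 328 ± 56.3 CPM in DMSO. Slamf6 was at 169.9 ± 68.3 and 137 ± 14.0 CPM, Ly9 at 103 ± 7.14 and 92.4 ± 9.93 CPM, Cd226 at 88.9 ± 21.8 and 103 ± 23.6 CPM and Cd6 at 73.4 ± 4.31 and 72.0 ± 20.4 CPM.

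Cd5, an adaptor-like receptor that tunes antigen receptor signalling and can also inhibit it, was at 76.6 ± 19.5 CPM in RGX-104 and 118 ± 29.6 CPM in DMSO. It was the 1 list member with an unadjusted edgeR p under 0.05, and it did not pass after adjustment (log2 fold change -0.63 ± 0.25, edgeR adjusted p = 1.00). Tnfrsf9 (4-1BB), which activation induces and which is named after its values were seen, had 1.63, 3.80, 7.47 and 6.95 CPM in RGX-104 replicates 5 to 8, against 0, 0, 0 and 3.13 CPM in DMSO replicates 1 to 4. It was counted in 4 RGX-104 libraries and 1 DMSO library at a level near that of 1 apparent molecule, and it did not pass (edgeR unadjusted p = 0.297).

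Of 18 further inhibitory receptors and adaptors, 7 were tested, and 0 were called by edgeR, DESeq2 or limma-voom, with 0 at an unadjusted edgeR p under 0.05. The log2 fold change was below 0 for 6 of the 7, with a median of -0.36. Over all 10037 genes tested, 4933 were below 0 and the median was 0.01. The most abundant were Pag1, an adaptor that holds the inhibitory kinase Csk at the membrane, at 127 ± 20.8 CPM in RGX-104 and 145 ± 30.2 CPM in DMSO, and Pecam1, at 93.2 ± 22.8 and 86.2 ± 28.4 CPM. Nt5e (CD73), an ectoenzyme that makes adenosine, was at 73.9 ± 1.99 and 94.0 ± 32.8 CPM. Klrd1 was at 49.9 ± 15.7 and 55.9 ± 19.5 CPM, Lax1 at 41.1 ± 8.55 and 55.3 ± 16.8 CPM and Sit1 at 13.3 ± 3.78 and 21.3 ± 6.87 CPM. Havcr2 (TIM-3) and Klrg1, receptors of exhausted and effector cells, had no count.

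Of 22 ligands, 11 were tested and 9 had no count in any library, among them Cd80 and Cd70. None was called by edgeR, DESeq2 or limma-voom, and none had an unadjusted edgeR p under 0.05; the median log2 fold change was -0.03. Selplg (PSGL-1), reported as a binding partner of VISTA, was the most abundant at 1075 ± 64.4 CPM in RGX-104 and 1071 ± 142 CPM in DMSO. Cd48 was at 234 ± 51.6 and 237 ± 38.7 CPM, and Lgals9 (galectin-9) at 105 ± 23.9 and 100.2 ± 1.76 CPM. Cd274, the PD-1 ligand PD-L1, was at 26.2 ± 9.58 and 26.2 ± 17.3 CPM, and Lgals3 at 7.64 ± 2.83 and 11.2 ± 7.90 CPM.

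Of 33 signalling and trafficking partners 32 were tested, with 0 called by edgeR, DESeq2 or limma-voom, and the median log2 fold change was 0.03. Grb2 (421 ± 35.0 CPM in RGX-104 and 403 ± 47.3 CPM in DMSO), an adaptor that binds the CD28 tail, and Lck (231 ± 17.4 and 224 ± 14.9 CPM), a kinase of the antigen receptor pathway, did not pass. Nor did Fyn (339 ± 37.3 and 304 ± 26.0 CPM) and Cbl (323 ± 19.9 and 305 ± 8.45 CPM). Pdcd4 (394 ± 18.2 and 368 ± 75.5 CPM) is on the list but is not a known partner of these receptors, and it did not pass either. An unadjusted edgeR p under 0.05 was found for 2 members, among them Prkcq, the kinase PKC-theta that links CD28 to NF-κB, at 98.3 ± 13.8 CPM in RGX-104 and 148 ± 22.8 CPM in DMSO. It did not pass after adjustment (log2 fold change -0.60, edgeR adjusted p = 1.00).

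Of 23 transcription factors known to act on these receptor genes 19 were tested, and edgeR and limma-voom called 0. The median log2 fold change was 0.06, and 3 members had an unadjusted edgeR p under 0.05. Over all genes tested, 3.81% had such a p. DESeq2 called 1, beside 0.329% of all genes tested. It was Lef1 (DESeq2 adjusted p = 2.48e-04), at 239 ± 27.7 CPM in RGX-104 and 355 ± 15.7 CPM in DMSO (edgeR log2 fold change -0.59 ± 0.14, adjusted p = 0.348), whose groups did not overlap, as in 3.56% of all genes tested. The other 2 were Fos (1.87 ± 1.56 and 16.6 ± 8.07 CPM) and Jun, a partner of Fos in the AP-1 factor (67.6 ± 12.4 and 41.2 ± 10.1 CPM), both with an edgeR adjusted p of 1.00. The groups did not overlap in some other named genes either, among them Fos, Prkcq, Il7r and Cd8a. Tcf7, Bach2, Nfatc3, Foxo1 and Nfatc1 did not pass, with log2 fold changes of 0.06, -0.09, 0.08, 0.000790 and 0.18. Tbx21, which encodes T-bet, had no count.

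**Figure D4:**
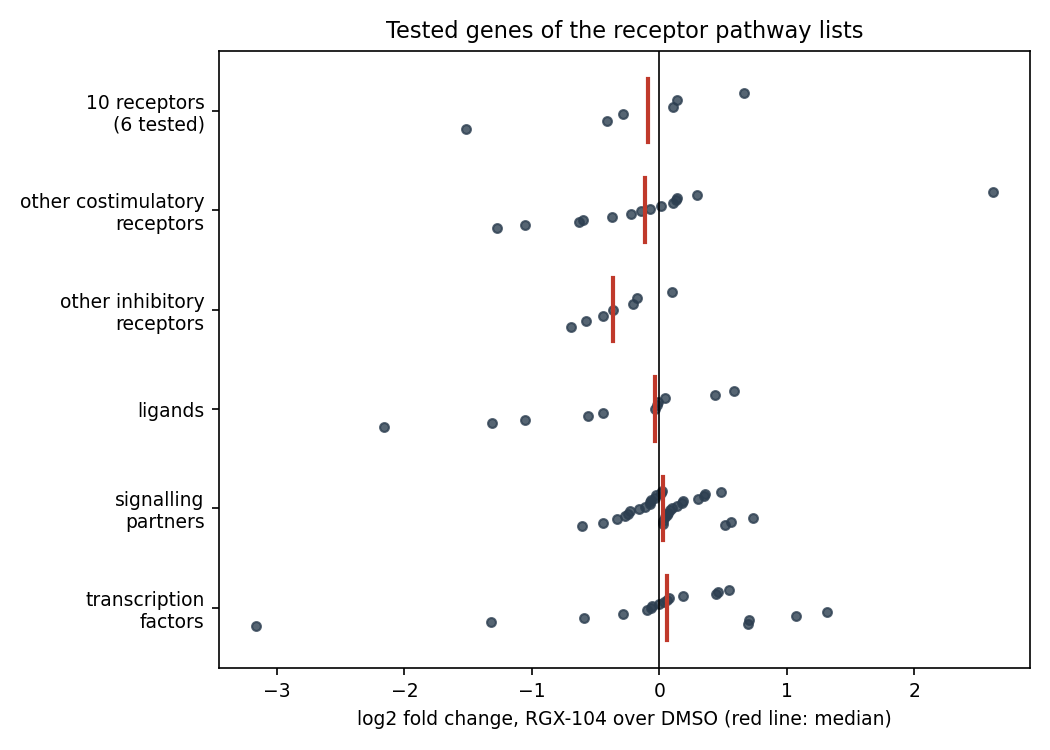
Log2 fold change, RGX-104 over DMSO, of each tested gene in the receptor set and in 5 lists of related genes (points), with the median of each list as a red line. Medians lie between -0.36 and 0.06, and no point is a gene called by edgeR.

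**Figure D5:**
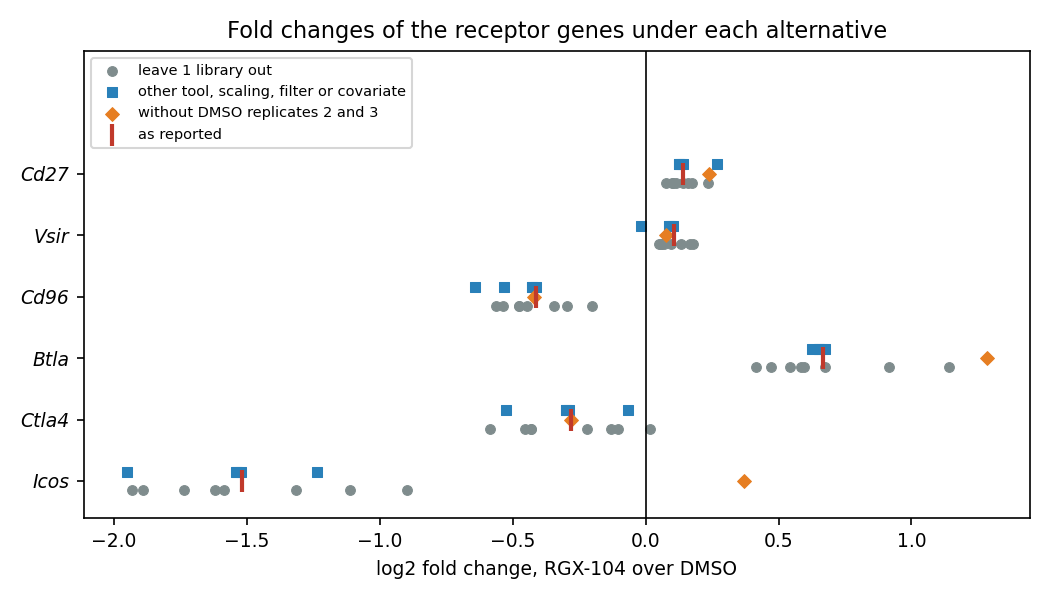
Log2 fold change, RGX-104 over DMSO, of the 6 tested receptor genes as reported (red) and under each alternative (other symbols). Cd27, Btla and Cd96 keep their direction under all 14 alternatives, and Icos crosses 0 without DMSO replicates 2 and 3, which held its highest values.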

How the data were processed

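The deposited values are whole-number read counts per gene symbol, 1 column per library without normalization, per the file headers. A QuantSeq 3′ mRNA kit was used for the libraries, per the labels. The submitters' processing notes list the build GRCm38 and the tools DESeq2 1.4, R 4.1.0 and STAR 2.7.8a, with no role stated. How reads were counted (tool, annotation, strand, molecular identifiers) is not given in these sources, so overlapping genes may share reads.

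The 8 count columns were fitted with edgeR 4.0.16 in R 4.3.3 (quasi-likelihood test, TMM, filterByExpr with a minimum count of 10, group as the only term), and p-values were adjusted by Benjamini-Hochberg over the 10037 genes kept. The test was run on simulated data first. Called genes are those with an adjusted p under 0.05. The standard error was taken as the size of the log2 fold change over the root of F, and the 95% intervals rest on it, so both are approximate. CPM are counts scaled to a deposited library total of 1000000, mean ± SD over 4 libraries. The intervals include the spread between libraries, whereas the limits from 0 counts (3 counts) cover counting error of independent reads only. Alternatives were relative log expression size factors, no filter, DESeq2 1.42.0, limma-voom (limma 3.58.1), genes detected as a covariate and leaving out libraries. No pairing or batch is labelled.

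The receptors and the 12 gene lists, 5 of the pathway and 7 of cell type markers, were chosen with earlier results of these data known. Named are all 10 receptors, called list members and the 6 tested members of each pathway list with the highest mean CPM. For receptors of 50 CPM or more, the 2 genes of highest correlation in log2 CPM are also named. Some list members that this rule would name are not reported here. Other genes are named after their values were seen. Coordinates are 1-based, from RefSeq (GRCm38.p6), and transcript ends from GENCODE M21. Protein sequences were not used here.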

Additional observations from a re-analysis of the deposited data

Results flagged for a closer look

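In 30 groups of 4 libraries examined (receptor genes and summed marker lists with any spread), 5 held 1 library that stood apart from the remaining 3. Chance gives about 1 in 20 groups for normally distributed values, but not where 3 libraries are at 0 and any count in the remaining one is then far from them, as in 3 of the 5, so the number found is not read against chance. Pdcd1 stood at 6.26 CPM in RGX-104 replicate 5, with the other RGX-104 libraries at 0, and DMSO replicate 2 held 14.6 CPM of it, the remaining DMSO libraries 0 to 1.23 CPM. At its highest, Pdcd1 came to 2.67 apparent molecules. Lag3 stood at 0.736 CPM in DMSO replicate 4 and Cd160 at 0.206 CPM in DMSO replicate 1, each at 0 in the other DMSO libraries. Dendritic cell markers summed to 7.11 CPM in DMSO replicate 4 and to 0 to 0.0411 CPM in the remaining DMSO libraries.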

How the results depend on the processing

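No receptor gene was called under any of the 14 alternatives (0 in each, leaving out any 1 library included), and 81 of 84 receptor fold changes kept their direction. Reversed were Icos without DMSO replicates 2 and 3 together (0.37, an alternative chosen after the data were seen), Vsir with genes detected as a covariate (-0.016) and Ctla4 without RGX-104 replicate 6 (0.016). DMSO replicates 2 and 3 held the highest Icos values, so the alternative without them lowers the control mean by construction. Leaving out 1 library gave log2 fold changes of -0.59 to 0.02 for Ctla4, -1.93 to -0.90 for Icos, 0.42 to 1.14 for Btla, -0.56 to -0.20 for Cd96, 0.08 to 0.23 for Cd27 and 0.05 to 0.18 for Vsir. Btla was at 1.28 without DMSO replicates 2 and 3. Over all genes, 10 were called higher and 1 lower. The number higher was 20 with DESeq2, 6 with genes detected as a covariate and 7 to 11 without 1 library, and the number lower was 13 with DESeq2, 4 without a filter, 3 with limma-voom and 1 to 3 without 1 library. The cause was not tested. No paired analysis was run, because the labels do not state whether libraries of the 2 groups were paired.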
